A study of Danio rerio with 4 samples.

Results

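The genes described here encode the respiratory chain and ATP synthase, the 5 protein complexes of the mitochondrial inner membrane that carry out oxidative phosphorylation. They were chosen by gene symbol, as every gene ID whose symbol begins with ndufa, ndufb, ndufc, ndufs or ndufv, with sdha to sdhd, uqcr, cox4 to cox8 or atp5, or is cyc1 or a protein-coding gene of the mitochondrial genome (mt-nd, mt-co, mt-atp, mt-cyb). The rule found 116 of 32520 gene IDs, 103 nuclear and 13 mitochondrially encoded, and took in 11 assembly factors and 3 regulators beside the subunits. RNA came from whole zebrafish larvae (Danio rerio) in 2 groups of 2 libraries each. The PM2.5 group was exposed to 12000000 smog particles from 72 to 120 hours after fertilization (PM2.5 is airborne particulate matter fine enough to reach deep into the lung), and the control group was untreated. No strain, genotype or transgene is given in the labels for either group, the labels give 5 to 7 larvae for each group's RNA, and nothing there ties the 2 libraries of a group to different clutches. P-values here thus rest on library-to-library spread alone, and that spread may be technical.

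Complex I takes electrons from NADH and complex II from succinate, both passing them to ubiquinone. Complex III hands them to cytochrome c and complex IV to oxygen, and complexes I, III and IV pump protons out of the matrix. Complex V, the ATP synthase, lets the protons back in through a turning ring of c subunits and makes ATP. The mitochondrial genome encodes core membrane subunits of complexes I, III, IV and V, while all subunits of complex II and the rest of the other complexes are encoded in the nucleus, so that both genomes have to supply parts of the same machines. Muscle, heart, brain and the mitochondria-rich ionocytes of fish skin are known for their heavy use of this pathway.

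Values were in TPM, a gene's share of the transcripts of a library after division by gene length, scaled to the same total in every library. A TPM keeps no read depth; the study design states an average of 20000000 reads, and the depth of each library is unknown. The libraries had 24121 and 25138 genes above 0 in the PM2.5 group and 25069 and 24923 in the control group. Marker lists of muscle, heart, ionocytes, liver, neurons and retina and of macrophages and neutrophils each summed to 75.4 TPM or more in every library. No marker matched to a gene ID was at 0 in all 4 libraries, and markers without a match were not examined. The tissues' markers differed between groups. The 23 fast skeletal muscle genes summed to 132367 and 128123 TPM in the PM2.5 libraries, against 159905 and 155964 TPM in the control libraries, and 18 of them were lower and none higher at the threshold used below. Of 14 macrophage and neutrophil genes 8 were higher and none lower, with sums of 260.2 and 270.1 TPM in the PM2.5 libraries, against 75.4 and 82.5 TPM in the control libraries, and 3 of 10 ionocyte genes were higher. Of 12 neuron and retina genes 3 were lower and none higher, and 0 of the 12 had a positive fold change. They summed to 3999 and 3992 TPM in the PM2.5 libraries, against 5307 and 5511 TPM in the control libraries. Of 10 liver genes 2 were higher and 5 lower, 1 of 6 heart genes was higher, and none of 10 slow muscle genes passed. In RNA of whole larvae, fewer cells of a type and less RNA per cell cannot be told apart. What these shifts contribute to the respiratory chain values was not tested gene by gene; a rescaling without the muscle genes is given below.

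Differences between the groups were small in every complex. Of the 116 genes, 114 averaged at least 1 TPM over the 4 libraries and were tested on log2(TPM + 1) with limma, a linear model that shares information on spread across genes. At a Benjamini-Hochberg adjusted p under 0.05 over all 20874 tested genes, 10 members were higher in exposed larvae and none was lower. These are 8.77% of the members tested, next to 8.46% of all tested genes higher and 2.62% lower, so the number of higher members was near the background. Among all genes with a mean of 50 to 500 TPM, the range that held 70 of the members, 22.6% were higher, against 8 of those 70 members, or 11.4%. An unadjusted p under 0.05 was found for 36 members as higher and 5 as lower, where 19.3% and 7.83% of all tested genes had one. The log2 fold changes ran from -0.71 to 0.49 on the log2(TPM + 1) scale, which understates changes of low genes. In TPM itself, ndufs8b alone of the tested members differed by over 2-fold between group means, with a ratio of 0.370 at levels near 1 TPM and overlapping groups. For 110 of the 114 the 95% confidence interval lay between -1 and 1, and for 89 it lay between -0.5 and 0.5. The 4 with wider intervals, all at low levels, were ndufa4l2b, ndufs8b, sdhda and cox4i1l.

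Most members lay slightly above 0 in fold change. A positive log2 fold change was found for 92 of 114 members (80.7%) and for 58.5% of all tested genes, and the medians were 0.10 and 0.072. Both PM2.5 libraries exceeded both control libraries in 61 members (53.5%) and lay below them in 11 (9.65%), where 36.6% and 19.7% of all tested genes did so. The medians moved with the scaling by more than they differed from each other. After a TMM-type rescaling (a trimmed mean of log ratios, which lowered the median of all genes by 0.088) the median of the members was 0.0050, next to -0.016 over all genes, and after quantile normalization (a shift of -0.11) it was 0.037, next to -0.042. Calls followed: 1 member was higher and 1 lower after TMM-type rescaling (5.87% and 3.93% of all genes), and 9 were higher and 1 lower after quantile normalization (6.34% and 4.61%). With TPM rescaled after leaving out the fast muscle genes, an alternative chosen after seeing the data, 4 were higher and 1 lower (6.93% and 2.85% of all genes). None of the 10 calls held in any of the 4 fits that left out a library.

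**Figure D1:**
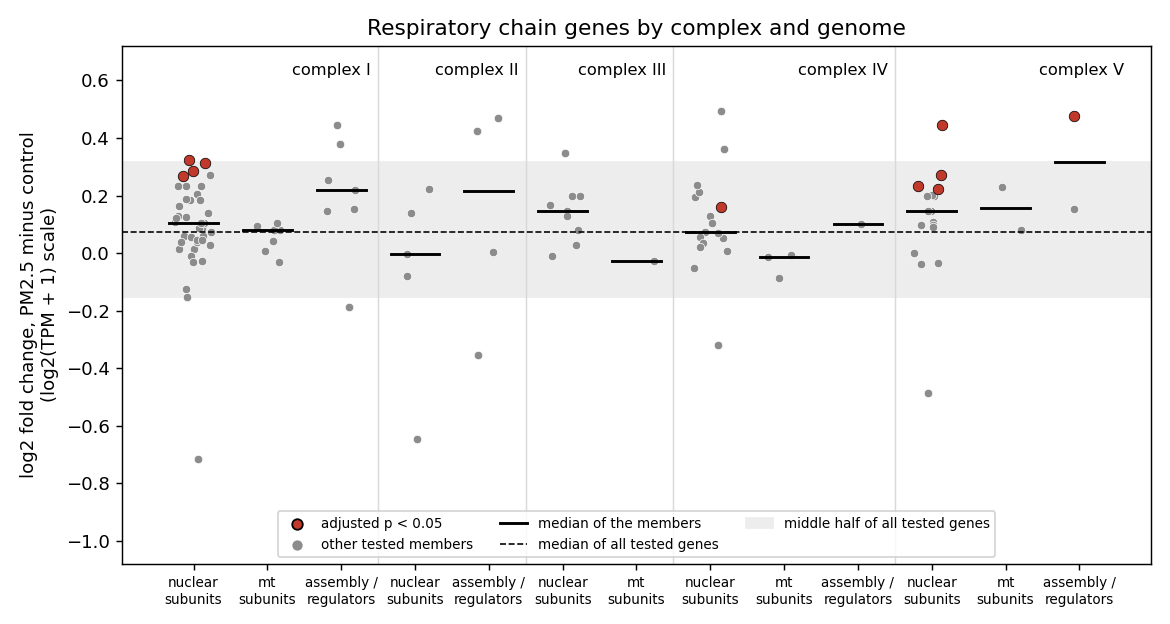
Log2 fold change (PM2.5 minus control, log2(TPM + 1) scale) of the 114 tested members, split by complex and by nuclear subunits, mitochondrially encoded (mt) subunits and assembly factors or regulators. Each point is a gene, horizontal spread within a column is arbitrary, the black bars are the members' medians, the dashed line is the median of all tested genes (0.072), and the grey band holds their middle 50%. The 10 members past the threshold are all above 0, 5 of them in complex V, and after TMM-type rescaling atp5md alone of them stayed past it.

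The nuclear and the mitochondrially encoded members differed little. The 103 nuclear members summed to 2.15% and 2.16% in the PM2.5 libraries, against 2.03% and 1.98% in the control libraries, in percent of all TPM. The 13 mitochondrially encoded members summed to 7.99% and 7.998% in the PM2.5 libraries, against 7.93% and 7.995% in the control libraries. The nuclear sum was thus higher in both exposed libraries and the mitochondrial sum overlapped between the groups. The ratio of the mitochondrial to the nuclear sum was 3.71 and 3.71 in the PM2.5 libraries, against 3.90 and 4.05 in the control libraries, without overlap. The median log2 fold change was 0.12 over 101 tested nuclear members, of which 10 rose (9.90%) and none fell, and 0.042 over the 13 mitochondrially encoded members, none of which passed. After TMM-type rescaling these medians were 0.028 and -0.056. Quantile normalization, which maps each rank to a common value, turned the order round (0.032 and 0.087). There the 3 mt-co genes had a difference of 0.

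Among mitochondrially encoded genes the levels spanned a wide range that was much the same in every library. TPM is meant to make levels comparable between genes, but the gene lengths and counting used are not given. The order of genes by level is thus uncertain. The catalytic oxidase subunit gene mt-co1 (ENSDARG00000063905) had 15353 and 15813 TPM in the PM2.5 libraries, against 15396 and 16065 TPM in the control libraries. Close to it was mt-co2, the subunit that receives electrons from cytochrome c, with 15748 and 14690.2 TPM in the PM2.5 libraries, against 15461 and 15077 TPM in the control libraries. The groups overlapped for both genes, whose intervals of the log2 fold change were -0.084 to 0.057 and -0.094 to 0.083. The third core oxidase gene, mt-co3, had 13293 and 13540.4 TPM in the PM2.5 libraries, against 14383 and 14129 TPM in the control libraries. Both exposed libraries lay below both controls, and the gene did not pass the threshold (log2 fold change -0.088, 95% interval -0.14 to -0.033, adjusted p = 0.061). It passed as lower with a pseudocount of 0.1 TPM and with TPM rescaled without the fast muscle genes. The cytochrome b gene mt-cyb, the core of complex III, stood at 6283 and 6069 TPM in the PM2.5 libraries, against 6276 and 6306 TPM in the control libraries. Those groups overlapped (log2 fold change -0.027, -0.093 to 0.04), and the sign was reversed with a call as higher under quantile normalization (0.087).

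The 7 mitochondrially encoded complex I genes, which form its proton-pumping membrane arm, lay between 1302 and 3911 TPM in single libraries, all under the oxidase genes. The highest was mt-nd1, at the ubiquinone-binding joint, with 3709 and 3911 TPM in the PM2.5 libraries, against 3578 and 3552 TPM in the control libraries. The lowest was mt-nd5, with 1317 and 1426 TPM in the PM2.5 libraries, against 1302 and 1427 TPM in the control libraries. The PM2.5 libraries exceeded the control libraries for mt-nd1, mt-nd2, mt-nd4 and mt-nd6 and overlapped with them for mt-nd3, mt-nd4l and mt-nd5. Fold changes of the 7 ran from -0.032 to 0.10, none passed, and every interval lay within -0.18 and 0.26. The gene mt-nd6 is transcribed from the opposite strand to the others. Whether counting used strand is not given in the sources used here, so its reads may not be separable from those of the other strand. After quantile normalization mt-nd1 passed as higher.

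Of the ATP synthase genes of that genome, mt-atp6, which forms the proton channel beside the c ring, had 11204 and 10649 TPM in the PM2.5 libraries, against 10183 and 10465 TPM in the control libraries. The short mt-atp8 was far lower, with 262 and 249.7 TPM in the PM2.5 libraries, against 209.9 and 227 TPM in the control libraries. Both were above the controls in both exposed libraries without passing (log2 fold changes 0.081 and 0.23, adjusted p 0.17 and 0.064). The mt-atp8 and mt-atp6 reading frames overlap, and how shared reads were counted is not given, so the level of mt-atp8 is uncertain. With a filter of at least 5 TPM mt-atp8 passed as higher. Besides these genes, the mitochondrial genome gave 1010.1 and 1066 TPM for the 2 ribosomal RNA genes together in the PM2.5 libraries, against 1135 and 1135 TPM in the control libraries.

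**Figure D2:**
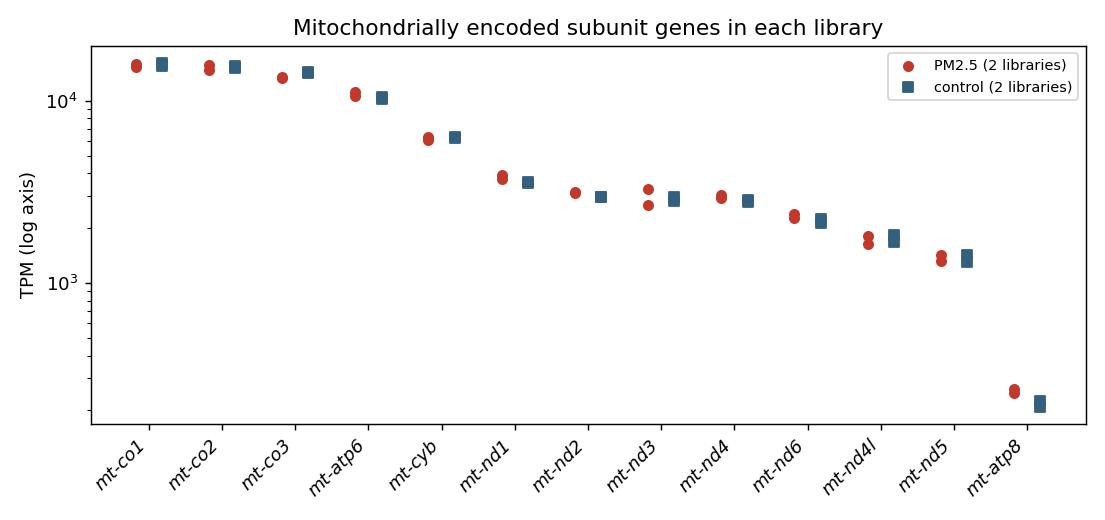
TPM of the 13 mitochondrially encoded subunit genes in each of the 4 libraries, on a log axis and ordered by mean level; circles are PM2.5 libraries and squares control libraries. The levels fall from between 15353 and 16065 TPM for mt-co1 to between 210 and 262 TPM for mt-atp8, and the groups lie close together for every gene.

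Nuclear subunit genes of the complexes differed in level. The median over a complex's tested nuclear subunits was highest for complex V (338 TPM), then 259.9 TPM for complex IV, 129.6 TPM for complex III, 125 TPM for complex I and 76.8 TPM for complex II. The medians of complexes III and I differed by less than the range of single subunits within each. In sums, nuclear subunits of complex V had 8888 and 8831 TPM in the PM2.5 libraries, against 8516 and 8149.6 TPM in the control libraries. Complex IV had 5151 and 5123 TPM in the PM2.5 libraries, against 4872 and 4749.5 TPM in the control libraries, and complex I 5025 and 5093 TPM in the PM2.5 libraries, against 4721 and 4615 TPM in the control libraries. For each of complexes I, III, IV and V the nuclear sum was higher in both exposed libraries, with group means at 106.3% (complex V) to 109.6% (complex III) of the control means. The complex II sum came to 420.1 and 424 TPM in the PM2.5 libraries, against 408 and 419 TPM in the control libraries, also higher in both exposed libraries, with a mean at 102.1% of the control mean. All these sums are on the deposited scale, and such small differences depend on it. The TMM-type factors, which divide TPM, were 1.01 and 1.06 for the PM2.5 libraries, against 0.94 and 0.99 for the control libraries. After that rescaling the median log2 fold changes of nuclear subunits were 0.0052 (I), -0.10 (II), 0.048 (III), -0.025 (IV) and 0.047 (V).

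In complex V, 5 of 19 tested nuclear members rose and none fell, and 4 of the 5 were among its 17 subunits. These 5 are 26.3% of the complex's tested nuclear members, next to 8.46% of all tested genes that were higher. Of all genes at 50 to 500 TPM 22.6% were higher, and of those at 500 TPM or more 16.5%. The complex's members fell mostly in these ranges, so no single share is that of genes of like level. Its median log2 fold change of 0.15 became 0.050 after TMM-type rescaling. The gene with the smallest p of all members was atp5md (ENSDARG00000096003, chromosome 1), which encodes a small membrane subunit known as DAPIT in mammals: it had 128 and 137 TPM in the PM2.5 libraries, against 96.3 and 97.4 TPM in the control libraries (log2 fold change 0.45, SE 0.065, adjusted p = 0.010). It also passed under both rescalings (0.35 for the TMM type and 0.31 for quantiles). The gene of the rotating gamma shaft, atp5f1c (ENSDARG00000045514, chromosome 4), had 668 and 667 TPM in the PM2.5 libraries, against 581 and 563 TPM in the control libraries (log2 fold change 0.22, SE 0.039, adjusted p = 0.019). Its libraries agreed closely within each group, and the groups were well apart. The peripheral stalk gene atp5pd rose (245 and 243 TPM in the PM2.5 libraries, against 209 and 195 TPM in the control libraries; 0.27, adjusted p = 0.032), as did atp5mc1, a gene of the c ring (449 and 464 TPM in the PM2.5 libraries, against 401 and 376 TPM in the control libraries; 0.23, adjusted p = 0.037).

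The fifth was atp5if1a (ENSDARG00000067975, chromosome 19), for the inhibitor protein that blocks ATP synthase from running backwards. It had 216 and 271 TPM in the PM2.5 libraries, against 166 and 181 TPM in the control libraries (log2 fold change 0.48, SE 0.11, adjusted p = 0.047), the largest fold change among the members past the threshold, with the exposed libraries wide apart. Its paralog atp5if1b had 182 and 205 TPM in the PM2.5 libraries, against 166 and 182 TPM in the control libraries and did not pass (0.15, adjusted p = 0.27). The genes of the alpha and beta subunits did not pass. The beta subunit gene atp5f1b, the most abundant nuclear member, had 1587 and 1571 TPM in the PM2.5 libraries, against 1614 and 1619 TPM in the control libraries, and the alpha subunit gene atp5fa1 had 1305 and 1282 TPM in the PM2.5 libraries, against 1331 and 1327 TPM in the control libraries. For both the exposed libraries were just below the controls, with intervals of -0.11 to 0.04 and -0.12 to 0.039 around log2 fold changes of -0.034 and -0.04. Relative to the median of all genes (0.072) these 2 subunits were lower and the 5 genes above were higher. After TMM-type rescaling atp5f1b and atp5fa1 had -0.13 and -0.14, below the median of -0.016. After quantile normalization they had 0.027 and 0.0075, above the median of -0.042, so their side of this contrast depended on the scaling. The 5 genes stayed above the median under both, which is no separate support, because they were selected for being higher. The e subunit gene atp5mea had the lowest fold change of complex V, with 30.9 and 41.2 TPM in the PM2.5 libraries, against 50.5 and 50.2 TPM in the control libraries (-0.49, adjusted p = 0.082), and passed as lower under both rescalings (-0.58 for the TMM type and -0.61 for quantiles). Its paralog atp5meb overlapped between groups (0.0016). Of the other subunits, the g subunit gene atp5l had 871 and 881 TPM in the PM2.5 libraries, against 799.6 and 724 TPM in the control libraries (0.20, adjusted p = 0.066). The stalk gene atp5po, for the subunit that confers oligomycin sensitivity, had 491 and 455 TPM in the PM2.5 libraries, against 433 and 391 TPM in the control libraries (0.20, adjusted p = 0.12). Both genes were higher in both exposed libraries and did not pass. The genes atp5f1d, atp5f1e, atp5mf, atp5pb, atp5pf and atp5mc3a had fold changes of 0.091 to 0.20, and atp5pf alone of them overlapped between groups.

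**Figure D3:**
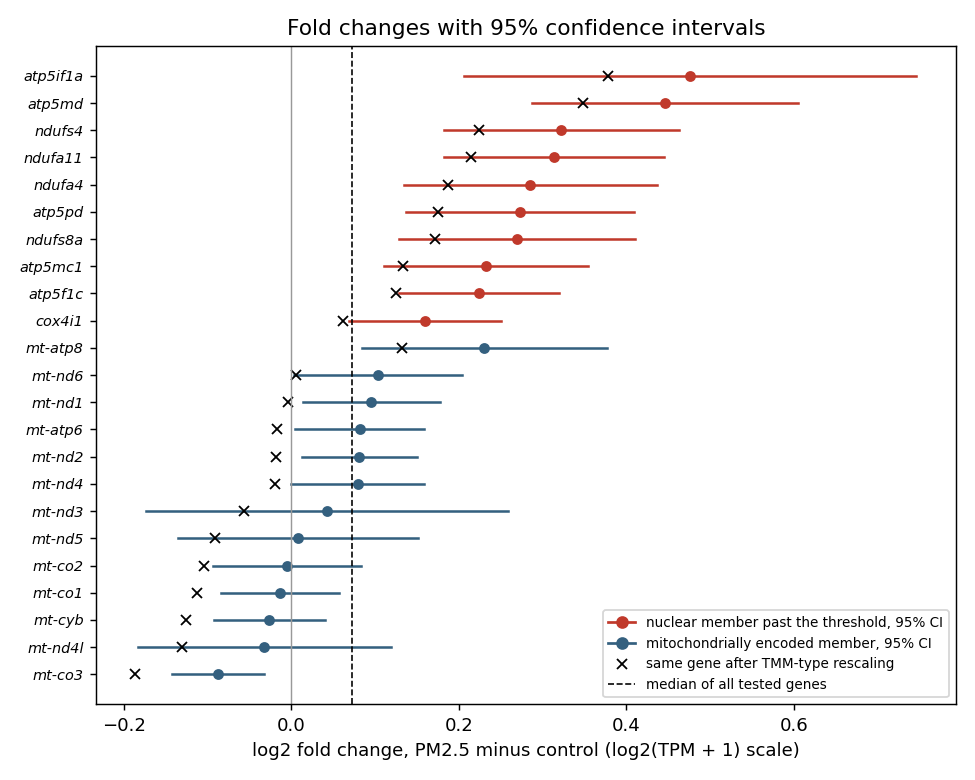
Log2 fold change (PM2.5 minus control, log2(TPM + 1) scale) with its 95% confidence interval for the 10 members past the threshold (upper lines) and the 13 mitochondrially encoded members (lower lines); crosses give the same genes after TMM-type rescaling, and the dashed line is the median of all tested genes. The intervals of the upper 10 start above 0, as their selection by p requires. Those of the mitochondrial genes lie within -0.18 and 0.38. Of these genes 5 had an unadjusted p under 0.05 as higher, so their intervals also start above 0, and that of mt-co3 lies below 0. The rescaling moves all points by about -0.1, leaving atp5md alone of the 10 past the threshold.

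In complex I, 4 of 46 tested nuclear members rose (8.70%, close to the 8.46% of all genes) and none fell. The 4 were ndufs4, ndufa11, ndufa4 and ndufs8a. The median level of the 46 members was 111 TPM, and of all genes at 50 to 500 TPM 22.6% were higher. Accessory subunit gene ndufs4 (ENSDARG00000052840, chromosome 5), whose loss in mice and humans causes a Leigh-like disease, had 137 and 136 TPM in the PM2.5 libraries, against 111 and 108 TPM in the control libraries (log2 fold change 0.32, SE 0.058, adjusted p = 0.020). The membrane arm gene ndufa11 had 192 and 185 TPM in the PM2.5 libraries, against 151 and 152 TPM in the control libraries (log2 fold change 0.31, SE 0.054, adjusted p = 0.018). The iron-sulfur core gene ndufs8a had 172 and 173 TPM in the PM2.5 libraries, against 139 and 147 TPM in the control libraries (0.27, adjusted p = 0.037). In each of the 3 the groups were apart by more than the libraries of a group. The fold changes of these 3 stayed positive after both rescalings but none passed there.

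Further core genes of complex I, ndufv1, ndufv2, ndufs3 and ndufs7, had positive fold changes on the deposited scale without passing. The NADH-binding flavoprotein gene ndufv1 had 193 and 195 TPM in the PM2.5 libraries, against 176 and 179 TPM in the control libraries (0.13, adjusted p = 0.18). Values of 0.10 for ndufs3, 0.026 for ndufs7 and 0.06 for ndufv2 had intervals that all held 0. After TMM-type rescaling ndufs7 and ndufv2 were negative (-0.072 and -0.039). After quantile normalization ndufs3, ndufs7 and ndufv2 were negative (-0.033, -0.097 and -0.062). Only ndufv1 stayed positive under both. The core gene ndufs1 was listed at 0 in all 4 libraries, and ndufb4 at 0 in 3 of them and at 0.24 TPM in control library 1. Cells of every type use these 2 genes, so a value of 0 can be a failed estimate, and neither was tested. The entry ndufs8b, annotated as a polymorphic pseudogene, had 0 and 1.44 TPM in the PM2.5 libraries, against 3.39 and 0.496 TPM in the control libraries, and its interval was wide (-2.30 to 0.87).

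Accessory subunit genes of complex I spread around the median of all genes, with a median of 0.095 that was -0.0031 after TMM-type rescaling. Of the 28 genes 24 (85.7%) lay above 0, where 58.5% of all tested genes did so. The acyl carrier protein gene ndufab1a, which also serves mitochondrial fatty acid synthesis, had 118 and 116 TPM in the PM2.5 libraries, against 99.3 and 100.4 TPM in the control libraries (0.23, adjusted p = 0.059), and ndufa12 had 255 and 238 TPM in the PM2.5 libraries, against 210.1 and 217 TPM in the control libraries (0.20, adjusted p = 0.073). Both passed with a filter of at least 5 TPM. On the other side, ndufb6 had 101 and 103 TPM in the PM2.5 libraries, against 119 and 108 TPM in the control libraries (-0.15, adjusted p = 0.23).

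Complex III had no member past the threshold among 9 nuclear genes. A positive fold change was found for 8 and an unadjusted p under 0.05 as higher for 4. Of all tested genes 58.5% and 19.3% had these. The median of the 9 genes was 0.15, and 0.048 after TMM-type rescaling. The cytochrome c1 gene cyc1 (ENSDARG00000038075, chromosome 6) had 197 and 199 TPM in the PM2.5 libraries, against 172 and 173 TPM in the control libraries (log2 fold change 0.20, SE 0.051, adjusted p = 0.061), with libraries of each group close together. The Rieske iron-sulfur protein gene uqcrfs1 stood at 90.8 and 87.2 TPM in the PM2.5 libraries, against 79.8 and 75.2 TPM in the control libraries (0.20, adjusted p = 0.13), and the small subunit gene uqcr10 at 94.4 and 119 TPM in the PM2.5 libraries, against 89.1 and 77.7 TPM in the control libraries (0.35, adjusted p = 0.14). The core protein genes uqcrc1 and uqcrc2a had fold changes of -0.012 and 0.03, and uqcrc2b, with 147 and 128 TPM in the PM2.5 libraries, against 123 and 121 TPM in the control libraries, had 0.17 (adjusted p = 0.24). The entry uqcrb averaged 1.08 TPM, although its subunit belongs to every copy of the complex.

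Complex II, which also works in the tricarboxylic acid cycle, had no member past the threshold among 9. Its flavoprotein gene sdha had 177 and 175 TPM in the PM2.5 libraries, against 185 and 187 TPM in the control libraries, with the exposed libraries just below (-0.079, adjusted p = 0.38). The iron-sulfur gene sdhb had 97.1 and 99.3 TPM in the PM2.5 libraries, against 77.8 and 90.6 TPM in the control libraries, with the exposed libraries above (0.22, adjusted p = 0.17). The anchor gene sdhc overlapped between groups (-0.0043). Of the other anchor's 2 genes, sdhdb had 67.3 and 71.4 TPM in the PM2.5 libraries, against 62.6 and 63.1 TPM in the control libraries. The scarce sdhda had 1.96 and 1.93 TPM in the PM2.5 libraries, against 3.14 and 4.13 TPM in the control libraries (-0.65, adjusted p = 0.15), the lowest fold change of any tested member other than ndufs8b. At this level the log2(TPM + 1) scale understates a change.

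In complex IV, 1 of 18 tested nuclear members rose (5.56%, next to 8.46% of all tested genes), namely cox4i1. This most abundant nuclear oxidase gene (ENSDARG00000032970, chromosome 18) had 903 and 904 TPM in the PM2.5 libraries, against 822 and 795 TPM in the control libraries (log2 fold change 0.16, SE 0.037, adjusted p = 0.047). The groups did not overlap, and the gene passed after quantile normalization (0.24) but not after TMM-type rescaling (0.061). Next in p were cox6b1, whose subunit bridges the oxidase dimer, with 142 and 154 TPM in the PM2.5 libraries, against 126 and 125 TPM in the control libraries (0.24, adjusted p = 0.073), and cox5ab (0.19, adjusted p = 0.15). The abundant genes cox5aa, cox6a1, cox6c, cox7c and cox8a had fold changes between 0.02 and 0.13, and none passed. Those of cox6b2, cox7a2a and cox7b lay between 0.0077 and 0.069, and that of cox7a2l, which in mammals helps to join complexes III and IV, was 0.10. The scarcer cox5b2 and cox4i1l had 0.21 and 0.49, with wide intervals (-0.062 to 0.48 and -0.047 to 1.03). The protein of ndufa4, first assigned to complex I, is known as an oxidase subunit in mammals. Its gene had 103 and 105 TPM in the PM2.5 libraries, against 85.95 and 84.2 TPM in the control libraries (log2 fold change 0.29, SE 0.062, adjusted p = 0.038). With ndufa4 and its 3 related genes counted there, complex IV had 2 of 21 tested nuclear subunit genes higher (9.52%) and complex I 3 of 35 (8.57%). Both shares were near the 8.46% of all tested genes. They were under the 22.6% of all genes with a mean of 50 to 500 TPM. That range held the median level of these complex IV (137 TPM) and complex I (138 TPM) genes, but not every gene.

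Several subunits are encoded by duplicated genes, and in mammals some of these are forms of muscle and heart or of hypoxic tissue. The hypoxia-related and lung form in mammals, cox4i2, made up 8.17% and 7.90% in the PM2.5 libraries, against 9.48% and 8.95% in the control libraries, of the cox4 transcripts. For cox8b, a muscle and heart form in rodents and cattle, the shares of cox8 transcripts were 4.48% and 5.80% in the PM2.5 libraries, against 6.93% and 6.60% in the control libraries. Both shares were lower in both exposed libraries, but neither gene passed by itself: cox8b had 31.8 and 40.4 TPM in the PM2.5 libraries, against 43.4 and 46.8 TPM in the control libraries (-0.32, adjusted p = 0.17), and cox4i2 had -0.052. Other muscle and heart forms of mammals did not pass either. The gene cox6a2 had 28.02 and 22.9 TPM in the PM2.5 libraries, against 22.1 and 17.2 TPM in the control libraries, with the exposed libraries higher (0.36, adjusted p = 0.21), and cox7a1 overlapped between groups (24.7 and 22.96 TPM in the PM2.5 libraries, against 23.8 and 22.05 TPM in the control libraries). Whether these genes are muscle forms in zebrafish larvae is not shown by RNA of whole animals.

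Of the remaining duplicates, atp5mea made up 7.06% and 9.20% in the PM2.5 libraries, against 10.7% and 11.3% in the control libraries, of the e subunit transcripts. The share of ndufa4 among its 4 related genes was 39.5% and 41.5% in the PM2.5 libraries, against 36.1% and 36.8% in the control libraries. The balance was mostly ndufa4l, with 58.4% and 55.4% in the PM2.5 libraries, against 61.5% and 60.2% in the control libraries. In TPM ndufa4l overlapped between groups (0.038). The scarce ndufa4l2a and ndufa4l2b also overlapped (-0.029 and 0.16). For atp5if1a the share was 54.3% and 56.9% in the PM2.5 libraries, against 50.1% and 49.95% in the control libraries, and for sdhda 2.83% and 2.63% in the PM2.5 libraries, against 4.77% and 6.14% in the control libraries. Transcripts of the c subunit came mostly from atp5mc3b, at 1454 and 1378 TPM in the PM2.5 libraries, against 1394 and 1258 TPM in the control libraries (0.096, adjusted p = 0.34). The shares of cox6b1, uqcrc2b, atp5mc1, ndufab1a and cox6a2 were also higher in both exposed libraries, so such a difference was common among the duplicates. For the cox5a, cox7a and ndufa9 pairs the shares overlapped. A share within a subunit is free of library scaling but has no test here. Reads of near-identical paralogs may have been split between them in the authors' counting.

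**Figure D4:**
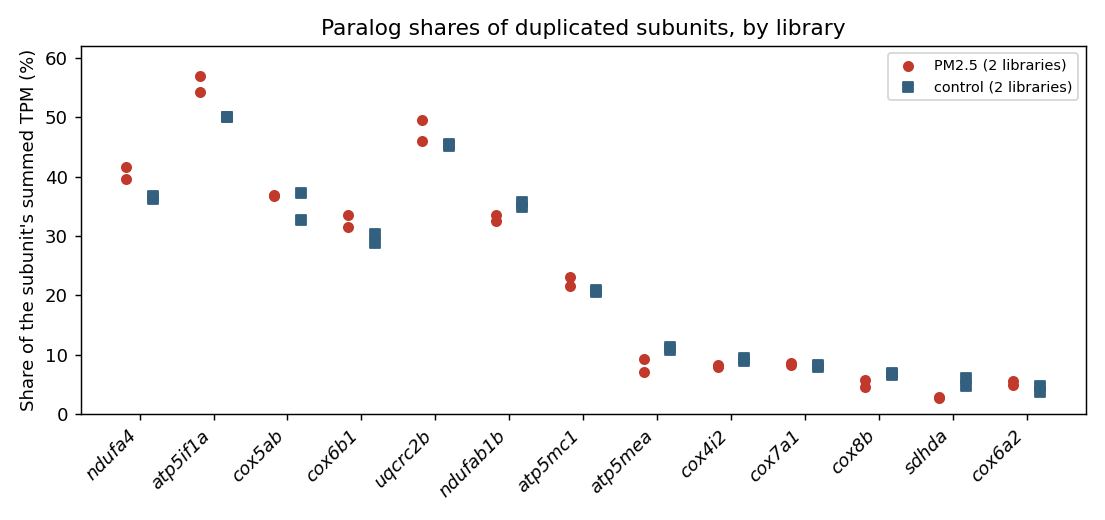
Share (%) of a duplicated subunit's summed TPM that comes from the named paralog, in each of the 4 libraries; circles are PM2.5 libraries and squares control libraries. The shares of ndufa4, atp5if1a, cox6b1, uqcrc2b, atp5mc1 and cox6a2 are higher in both exposed libraries. Those of atp5mea, cox4i2, cox8b, sdhda and ndufab1b are lower, and those of cox5ab and cox7a1 overlap. Group means differ by at most 5.57 percentage points, and no test was made of these shares.

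Assembly factors, which help to build the complexes and are not part of the finished enzyme, were low in level (5.69 to 36.1 TPM on average). None of the 11 passed in limma. An unadjusted p under 0.05 was found for 4 as higher and 1 as lower, where 19.3% and 7.83% of all tested genes had one. Their median log2 fold change was 0.22 (0.13 after TMM-type rescaling). The factor gene ndufaf5 had 42.4 and 39.4 TPM in the PM2.5 libraries, against 28.7 and 33.9 TPM in the control libraries (0.38, adjusted p = 0.084), and sdhaf4 had 30.1 and 24.6 TPM in the PM2.5 libraries, against 17.97 and 20.9 TPM in the control libraries (0.47, adjusted p = 0.089). The gene sdhaf3 had 17.4 and 15.8 TPM in the PM2.5 libraries, against 11.02 and 13.3 TPM in the control libraries (0.42, adjusted p = 0.11). By contrast, sdhaf2, which attaches flavin to complex II, had 12.7 and 13.4 TPM in the PM2.5 libraries, against 17.97 and 15.96 TPM in the control libraries (-0.36, adjusted p = 0.13). Of 51 tested assembly factors with other names, 2 rose (3.92%) and none fell, next to 8.46% and 2.62% of all tested genes. The median of the 51 was 0.22, next to 0.072 over all genes. After TMM-type rescaling these medians were 0.12 and -0.016. The gene uqcc1, for complex III, rose, with 51.7 and 51.1 TPM in the PM2.5 libraries, against 41.1 and 40.02 TPM in the control libraries. So did tmem70, for ATP synthase, with 11.4 and 9.43 TPM in the PM2.5 libraries, against 5.73 and 5.80 TPM in the control libraries. The log2 fold changes of uqcc1 and tmem70 were 0.33 and 0.75 (adjusted p 0.046 and 0.036).

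Genes that surround the chain gave a mixed picture. Among 17 tested electron carrier genes 2 rose and none fell: etfb, which passes electrons from fatty acid oxidation (182 and 171 TPM in the PM2.5 libraries, against 144 and 139 TPM in the control libraries; 0.31), and the ubiquinone synthesis gene pdss2 (0.88, adjusted p = 0.047). The cytochrome c gene cycsb had 457 and 441 TPM in the PM2.5 libraries, against 403 and 409 TPM in the control libraries and did not pass (0.15, adjusted p = 0.09), and cycsa was listed at 0 throughout. Of 32 genes of mitochondrial transcription and translation 1, the elongation factor gene tufm, rose (79.6 and 75.3 TPM in the PM2.5 libraries, against 57.4 and 58.7 TPM in the control libraries; 0.41, adjusted p = 0.019), and the mitochondrial DNA packaging gene tfam had 0.16 (adjusted p = 0.35). Median log2 fold changes were 0.19 over the electron carrier genes (15 of 17 positive) and 0.20 over the transcription and translation genes (25 of 32). The median over all genes was 0.072, with 58.5% positive. None of 11 regulators of mitochondrial biogenesis passed in limma. A positive fold change was found for 6 of the 11, with a median of 0.0084. The transcription factor gene nrf1 had 18.5 and 23.4 TPM in the PM2.5 libraries, against 29.5 and 29.8 TPM in the control libraries (-0.49, adjusted p = 0.068), esrra had -0.47 (adjusted p = 0.10), and the coactivator gene ppargc1a overlapped between groups (0.0084).

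Of 24 genes of the tricarboxylic acid cycle and of enzymes that feed it or draw on it, 3 rose and none fell. They were dlst (0.32), which alone of the 3 belongs to the cycle itself, pck2 (0.59) and pcxa (0.45). Citrate synthase, cs, had 0.064. In the list of ATP export, outer membrane pores and uncoupling, 1 of 16 tested genes rose and 4 fell. The ATP exporter gene slc25a4, the muscle and heart form in mammals, fell (959 and 934 TPM in the PM2.5 libraries, against 1130.2 and 1089 TPM in the control libraries; -0.23, adjusted p = 0.016), and so did the mitochondrial creatine kinase gene ckmt2b (334 and 333 TPM in the PM2.5 libraries, against 432 and 426 TPM in the control libraries; -0.36), ucp1 (-0.26) and ucp3 (-0.26). The more abundant exporter gene slc25a5 did not pass (0.027), with 5820 and 5693 TPM in the PM2.5 libraries, against 5643 and 5653 TPM in the control libraries. The groups overlapped for slc25a6. The other creatine kinase genes ckmt1 and ckmt2a were higher in both exposed libraries without passing (0.19 and 0.097). The uncoupling protein gene ucp2, known from immune cells in mammals, rose (359 and 339 TPM in the PM2.5 libraries, against 259 and 256 TPM in the control libraries; 0.43, adjusted p = 0.0046). The genes of this list that passed moved beside the lower fast muscle markers and the higher macrophage and neutrophil markers given above. The part of those tissues in them was not tested. Of 17 genes of the mitochondrial stress response 3 rose and none fell: the matrix protease gene clpp (38.6 and 39.2 TPM in the PM2.5 libraries, against 20.8 and 19.1 TPM in the control libraries; 0.93, adjusted p = 0.003) and the chaperonin genes hspd1 (0.39) and hspe1 (0.41). Median log2 fold changes were 0.060 for the cycle list, -0.0042 for the ATP export list and 0.17 for the stress response list. All these lists are read against 8.46% of all genes higher and 2.62% lower, and of the genes named in this and the preceding paragraph only ucp2 and clpp stayed past the threshold in any fit that left out a library, in 1 of the 4 fits each.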

How the data were processed

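The authors deposited 1 table of TPM for 4 libraries. Per the submitters' processing notes, reads were handled with cutadapt 1.18 and STAR 2.6.1c on build GRCz11; the sources used here do not give the counting program, annotation, gene lengths or strand setting. Per the labels' protocols, RNA of integrity number over 7.8 was read in pairs of 150 bases. Libraries were grouped by their titles. Of 32925 rows, 405 repeated a gene ID with equal TPM and were dropped. Because TPM is a share, a rise of some genes lowers the others.

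The filter kept genes averaging 1 TPM or more. Their log2(TPM + 1) values were fitted by group with limma 3.58.1 (R 4.3.3), using trended eBayes, and the two-sided p-values were adjusted by Benjamini-Hochberg across every gene tested. Each gene has 2 residual degrees of freedom and gains 4.15 from the others. The procedure was checked on simulated data, where most changes of the sizes seen in the members were missed. Those changes were placed among genes of all levels and were fewer than the genes called in the data. The median SE was 0.17 over all tested genes and 0.066 over the members. The check thus does not give the recovery for the members. A gene that did not pass is still not shown to be unchanged. Gene lists were matched by symbol (260 gene IDs for 276 entries, 253 tested; 19 entries were unmatched) and are described without a list test. The members and lists were chosen with earlier results of these data known. Named are all mitochondrially encoded members, catalytic core subunits, paralogs of complexes IV and V and of ndufa4, the 3 smallest p per complex and the largest changes past the threshold. Other genes named, such as ndufb6, ndufab1a, ndufa12, ndufaf5 and all genes of the surrounding lists, were picked after their values were seen. For 1 of the 116 members the values are not reported here. Alternatives were other pseudocounts, filters and scalings, a replicate block, no trend, and leaving out each library.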

Additional observations from a re-analysis of the deposited data

How the results depend on the processing

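Small changes on a share scale depend on the scaling, and so did most calls of members. As deposited, 10 members were higher and none lower. With a mean of at least 5 TPM 16 were higher. Calls over all genes also rose there, to 1876 higher and 622 lower, from 1766 and 547 as deposited, although fewer genes were tested. TMM-type rescaling gave 1 higher and 1 lower. Leaving out the fast muscle genes (chosen after seeing the data) gave 4 higher and 1 lower. Quantile normalization gave 9 higher and 1 lower, with 5 of the 10 called again. With a pseudocount of 0.1 TPM 10 were higher and 1 lower, beside 1761 higher and 534 lower genes overall. Without the intensity trend 0 were higher, and 11 members had an unadjusted p under 0.05. Leaving out any library gave 0 members (limma; 20 to 34 with an unadjusted p under 0.05), beside 286 to 371 higher and 70 to 124 lower genes overall; a lone library is then assumed to vary like the others. Over all genes the calls were 665 higher and 105 lower without the trend and 962 lower after quantile normalization. Higher genes made up 76.4% of all calls as deposited, 59.9% with TMM-type scaling and 57.9% with quantile normalization. The nuclear median of 0.12 was 0.028 after TMM-type rescaling, 0.032 after quantile normalization, 0.077 without the fast muscle genes and 0.098 to 0.13 with a library left out. The mitochondrial median of 0.042 was -0.056, 0.087, -0.0042 and 0.045 to 0.074 in the same order. The gene mt-cyb turned to 0.087 and passed after quantile normalization. With the replicate block 12 members were higher and none lower, and 2072 and 781 genes overall; replicate numbers were not tied to a shared batch, and the correlation of same-numbered deviations was 0.065 across genes. The cause of these shifts was not tested. TPM gives no depth, so counting error could not be set beside these values.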
